A study of Oryza sativa with 6 samples.

Results

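The loci described here are the 80 rice loci annotated with the molecular function ADP binding and without a chloroplast component, out of 6922 loci listed in either of 2 deposited comparisons. Among the listed loci they were chosen by annotation terms alone. Listing itself depended on the measured change, as described below, so ADP-binding loci with little change are not among them. The 6 RNA-seq libraries were made from vegetative tissue of Pusa Basmati 1, an indica rice cultivar, taken from seedlings at 5 weeks, with 2 libraries each of wild type, of over-expression of OsRDR3 (OE) and of its knock-down (KD). OsRDR3 is an RNA-dependent RNA polymerase, an enzyme that copies RNA into double-stranded RNA. The sources used here do not give the promoter and construct of each line, the number of independent lines, or whether replicates came from separate plants. For each transgenic group the authors deposited a table against wild type. It gives 1 pooled FPKM value per group and locus (sequenced fragments scaled by transcript length and by library size), so no value has a spread between replicates. FPKM values below are the authors' pooled group values, and log2 fold changes were recomputed from them. A locus was called where the authors' q, the p-value of their Cuffdiff test adjusted over all loci they tested, was under 0.05. Only loci with p of at most 0.05 are listed, so a member missing from a table has no value there. Counts of members are set beside those of all listed loci as a description, and the set as a whole was not tested.

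ADP binding is the annotation given to the nucleotide-binding switch of plant NLR proteins (nucleotide-binding, leucine-rich repeat receptors). These intracellular receptors detect pathogen effectors, or the changes that effectors cause in host proteins, and trigger local cell death and resistance. Their central NB-ARC domain holds ADP at rest and exchanges it for ATP on activation, and the leucine-rich repeats hold the receptor shut and take part in recognition. In rice, NLR genes form a large family, often in tandem arrays of similar copies, and chromosome 11 is known to be rich in them. Most are transcribed at low levels in healthy plants.

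Most members were also annotated to defense, by a process term that does not name a receptor. Of the 80 loci, 54 (67.5%) also carry the term defense response, against 0.278% of the other listed loci, and 24 carry no biological process term at all. ADP binding was the only molecular function of 67 members. The protein names were little help: 70 members were uncharacterized, 8 had none, and 2, BGIOSGA015680 and BGIOSGA038062, were named putative NB-ARC domain-containing protein (fragment). A few members carry terms of another kind. BGIOSGA010742 is annotated with both ADP binding and terpene synthase activity, an enzyme activity that makes terpenoid compounds. BGIOSGA035677 is annotated with ADP binding and sequence-specific transcription factor activity, and BGIOSGA000784 with terms for gravitropism and polysaccharide synthesis. The richest annotation belongs to BGIOSGA014719, with terms for the hypersensitive response, salicylic acid signalling, innate immunity and the plasma membrane. Leucine-rich repeats could not be looked for in the tables, so membership rests on the ADP-binding term. The 1 locus that the chloroplast condition removed, BGIOSGA033513, is annotated as an activator of Rubisco, the carbon-fixing enzyme, and its level fell from 287 to 113 FPKM in the knock-down group, called the KD-labelled libraries from here on.

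Some values of the whole series bear on every result below. The RNA-dependent RNA polymerase locus BGIOSGA002194, which the tables do not pair with the name OsRDR3, rose in the KD-labelled libraries, from 0.190 to 69.5 FPKM, and also in over-expression, from 0.198 to 58.7 FPKM. If it is the target, its level goes against the knock-down label, so results are worded for the KD-labelled libraries, with no statement on what less of the enzyme does. Leaf markers, meaning chlorophyll a-b binding proteins and the Rubisco small subunit, lay below wild type at all 21 listed loci in the KD-labelled libraries, 18 of them called. Their summed level was 24560 FPKM in wild type against 7656 FPKM there. In over-expression 13 of 14 listed leaf marker loci lay below wild type, 4 of them called, and 1 was a called rise. The summed level went from 11602 to 6946 FPKM. No marker of the floral list was listed in either table, and the highest wild-type level of a listed root marker was 1.41 FPKM (HKT1, not called). In over-expression the root marker SCR1 rose from 0.638 to 1.86 FPKM, and SHR1, at 0.178 and 0.710 FPKM, was not called. In bulk tissue, fewer cells of a type and less RNA per cell cannot be told apart, and the part of these shifts in the results below was not tested.

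ADP-binding loci were weakly expressed in wild type. In the table for the KD-labelled libraries, the 64 listed members had a median wild-type level of 1.12 FPKM, with quartiles of 0.567 and 2.29 FPKM and a range from 0.0511 to 19.7 FPKM. The median over all 4341 listed loci was 5.53 FPKM. Under 1 FPKM in wild type stood 29 of the 64 members (45.3%), against 13.8% of all listed loci. In the over-expression table the 34 listed members had a median of 2.31 FPKM and ranged from 0.178 to 15.3 FPKM, and 23.5% of them lay under 1 FPKM against 16.6% of all listed loci. The wild-type values of the 2 tables come from the same libraries under slightly different scaling, with a median ratio of 1.04 between the tables.

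The members of highest wild-type level reached only moderate values. BGIOSGA020621 on chromosome 6 was highest in the first table at 19.7 FPKM, followed by BGIOSGA037981 at 14.6, BGIOSGA038109 at 12.1, BGIOSGA035036 at 10.5 and BGIOSGA037980 at 6.77 FPKM. In the over-expression table BGIOSGA017180 on chromosome 4 led with 15.3 FPKM, followed by BGIOSGA037981 at 15.2, BGIOSGA038109 at 12.6, BGIOSGA038198 at 10.9 and BGIOSGA037980 at 7.06 FPKM. The loci BGIOSGA037980, BGIOSGA037981, BGIOSGA038109 and BGIOSGA038198 lie on sequences not placed on a chromosome. In the transgenic groups the strongest members stood at 29.1 FPKM (BGIOSGA020621, KD-labelled libraries) and 11.1 FPKM (BGIOSGA017180, over-expression).

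**Figure D1:**
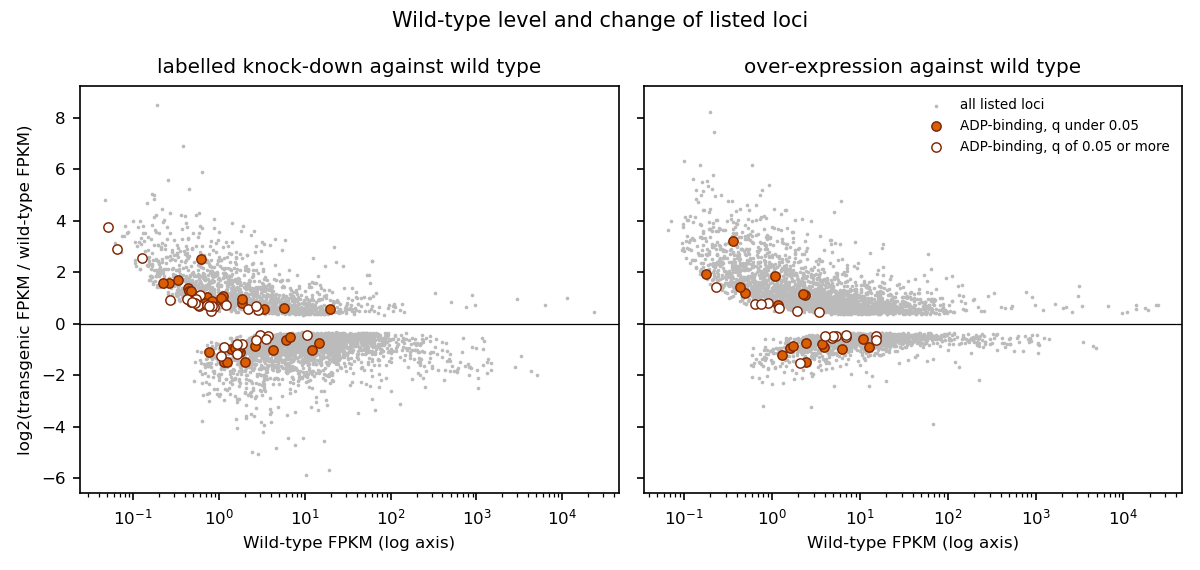
Wild-type FPKM on a log axis against the log2 ratio of transgenic to wild-type FPKM for every listed locus (grey) and the ADP-binding loci (circles, filled where q was under 0.05), in the KD-labelled libraries (left) and in over-expression (right). Members sit toward the left of the cloud, and 28 of the 29 members under 1 FPKM in wild type on the left panel lie above 0.

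The KD-labelled libraries were set against wild type to see which transcripts differ under that label. More ADP-binding loci rose than fell, while among all loci more fell than rose. Of the 64 listed members, 33 were called (51.6%), close to the 54.3% of all listed loci called. By direction, 19 members rose (29.7% of those listed, against a background of 17.6%) and 14 fell (21.9%, against 36.7%). Called or not, 40 of the 64 lay above wild type (62.5%, against 34.9% of all listed loci). Over the 64, the log2 fold change had a median of 0.69, against -0.58 over all listed loci. At least 2-fold was reached by 9 of the 19 rises and 8 of the 14 falls, against 505 of 766 rises and 760 of 1592 falls over all listed loci.

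Among listed loci, a low wild-type level and a rise went together, in the members and in all loci. Listing needed p of at most 0.05, and wild-type level is also the denominator of the ratio. A weakly expressed locus could thus be listed mostly by rising, so no link of level and direction is drawn from these shares. Among members under 1 FPKM in wild type, 28 of 29 (96.6%) lay above wild type, against 88.3% of all listed loci under that level. At 1 FPKM or more, 12 of 35 members (34.3%) lay above wild type, against 26.4% of all listed loci. The part of level in the excess of rises was not tested. With the classes set by the mean of both groups, 22 of 27 members under 1 FPKM (81.5%) lay above wild type, against 61.1% of all such loci, and 18 of 37 members at 1 FPKM or more (48.6%), against 32.2%. Of the 37, 11 rose (29.7%, against 17.9% of all listed loci at that mean level) and 11 fell (29.7%, against 39.5%). Of the 27 under that level, 8 rose (29.6%, against 15.5%) and 3 fell (11.1%, against 9.42%).

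The largest called rise was that of BGIOSGA010742 (OsI_11555), at 14609232 to 14621850 of chromosome 3, in a build that the sources used here do not name. It went from 0.613 to 3.48 FPKM, a 5.67-fold rise, and the authors' deposited table gives q = 0.000868. This is the locus with both ADP-binding and terpene synthase terms, and its 1 value does not show which part of the locus the reads came from. BGIOSGA035668 on chromosome 11 rose from 0.337 to 1.10 FPKM, 3.28-fold, and the authors' deposited table gives q = 0.0128. BGIOSGA006629 on chromosome 2 rose from 0.441 to 1.16 FPKM and BGIOSGA030104 on chromosome 9 from 0.445 to 1.06 FPKM. These 3 loci carry the defense response term, and each went from under 1 FPKM to just over it. The unplaced locus BGIOSGA040548 rose from 0.468 to 1.14 FPKM.

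Further rises were close to 2-fold. BGIOSGA035429 on chromosome 11 rose from 1.12 to 2.35 FPKM, BGIOSGA024838 on chromosome 7 from 0.719 to 1.49 FPKM and BGIOSGA026982 on chromosome 8, at 1.06 FPKM in wild type, rose 1.97-fold. The putative NB-ARC protein BGIOSGA015680 on chromosome 4 rose from 0.839 to 1.55 FPKM, and the authors' deposited table gives q = 0.00770. BGIOSGA036459 on chromosome 12, from 5652895 to 5657304, went from 1.83 to 3.54 FPKM, and its q in the authors' deposited table was 0.000868. The most strongly expressed member, BGIOSGA020621, rose from 19.7 to 29.1 FPKM, 1.48-fold, and the authors' deposited table gives q = 0.0147. Large ratios also stood at loci near 0 that were not called: BGIOSGA029432 had 0.0511 FPKM in wild type against 0.689 FPKM in the other group, a log2 fold change of 3.75 with q = 0.110 in the authors' deposited table. BGIOSGA000625 and BGIOSGA015528, at 2.92 and 2.55 on the log2 scale, were not called either.

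The falls in the KD-labelled libraries were at most 2.83-fold. BGIOSGA032568 on chromosome 10 fell from 1.14 to 0.404 FPKM, and the authors' deposited table gives q = 0.0110. BGIOSGA001668 on chromosome 1 fell from 2.03 to 0.721 FPKM and BGIOSGA033971 on chromosome 11 from 1.23 to 0.440 FPKM, the first with q = 0.0431 and the second with q = 0.00292 in the authors' deposited table. All 3 carry the defense response term. BGIOSGA010022 on chromosome 3 fell from 1.75 to 0.812 FPKM, BGIOSGA037327 on chromosome 12 from 4.26 to 2.08 FPKM and BGIOSGA036486 on the same chromosome from 1.36 to 0.687 FPKM. These 3 falls were close to 2-fold. Among unplaced loci, BGIOSGA038109 fell from 12.1 to 5.89 FPKM (q of 0.000868, the authors' deposited table), the putative NB-ARC protein BGIOSGA038062 from 1.67 to 0.831 FPKM, BGIOSGA037981 from 14.6 to 8.56 FPKM and BGIOSGA037980 from 6.77 to 4.68 FPKM. BGIOSGA035036 on chromosome 11, at 10.5 and 7.76 FPKM, was not called.

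Over-expression was set against wild type for the same question in plants labelled as making more OsRDR3. Here more ADP-binding loci fell than rose, while among all loci more rose than fell. Of the 34 listed members, 18 were called (52.9%, against 51.5% of all listed loci). By direction, 8 members rose (23.5%, against a background of 37.9%) and 10 fell (29.4%, against 13.6%). Below wild type, called or not, stood 19 of the 34 members, and 44.1% stood above it against 67.8% of all listed loci. Over the 34, the log2 fold change had a median of -0.48, against 0.67 over all listed loci. A change of at least 2-fold was reached by 7 of the 8 rises and 2 of the 10 falls, against 960 of 1626 rises and 116 of 585 falls over all listed loci.

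In over-expression the members were also set beside all listed loci of like level. At 1 FPKM or more in wild type, 7 of 26 members (26.9%) lay above wild type, against 62.2% of all listed loci at that level. By the mean of both groups, 10 of 28 members at 1 FPKM or more (35.7%) lay above it, against 66.9%. Under 1 FPKM in wild type all 8 listed members lay above wild type, as did 95.7% of all listed loci. A locus at that level could be listed mostly by rising. By the mean of both groups, 5 of 6 members under 1 FPKM (83.3%) lay above wild type, against 79.8% of all such loci. No link of level and direction is drawn from these shares here either. Whether the members differ between the 2 transgenic groups was not tested, since each has 1 pooled value and both use the same wild-type libraries.

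BGIOSGA024974 (OsI_24594) on chromosome 7, from 342809 to 344189, had the largest rise in over-expression. It went from 0.361 to 3.32 FPKM, 9.20-fold, and the authors' deposited table gives q = 0.00614. BGIOSGA019279 on chromosome 5 rose from 1.09 to 3.96 FPKM, 3.63-fold, and its neighbour BGIOSGA018690 from 2.24 to 4.92 FPKM, both with q = 0.00105 in the authors' deposited table. BGIOSGA011091 on chromosome 3 rose from 2.38 to 5.19 FPKM with the same q of 0.00105 in the authors' deposited table. These last 3 loci carry the defense response term and stood above 1 FPKM in both groups. BGIOSGA033692 on chromosome 11 rose from 0.438 to 1.16 FPKM and BGIOSGA002656 on chromosome 1 from 0.490 to 1.13 FPKM. The unplaced locus BGIOSGA037918 rose from 0.178 to 0.686 FPKM, staying under 1 FPKM.

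BGIOSGA019677 on chromosome 5, from 17701578 to 17704693, had the largest called fall in over-expression. It went from 2.45 to 0.869 FPKM, 2.82-fold lower, and the authors' deposited table gives q = 0.00105. BGIOSGA035094 on chromosome 11 fell from 6.28 to 3.21 FPKM, and BGIOSGA001515 on chromosome 1 from 3.89 to 2.05 FPKM, with q = 0.00105 and q = 0.00192 in the authors' deposited table. BGIOSGA018701 and BGIOSGA018501, both on chromosome 5, fell from 1.63 to 0.846 FPKM and from 3.71 to 2.14 FPKM. All 5 members listed on chromosome 5 in over-expression were called, 2 as rises and 3 as falls, against 51.5% of all listed loci called. The share called among all loci listed on that chromosome was not counted. Of the strong unplaced loci, BGIOSGA038198 fell from 10.9 to 7.26 FPKM, while BGIOSGA037981 (15.2 and 9.82 FPKM) and BGIOSGA037980 (7.06 and 5.20 FPKM) were not called. BGIOSGA017180, the strongest member at 15.3 and 11.1 FPKM, was not called either, and the authors' deposited table gives q = 0.0642.

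**Figure D2:**
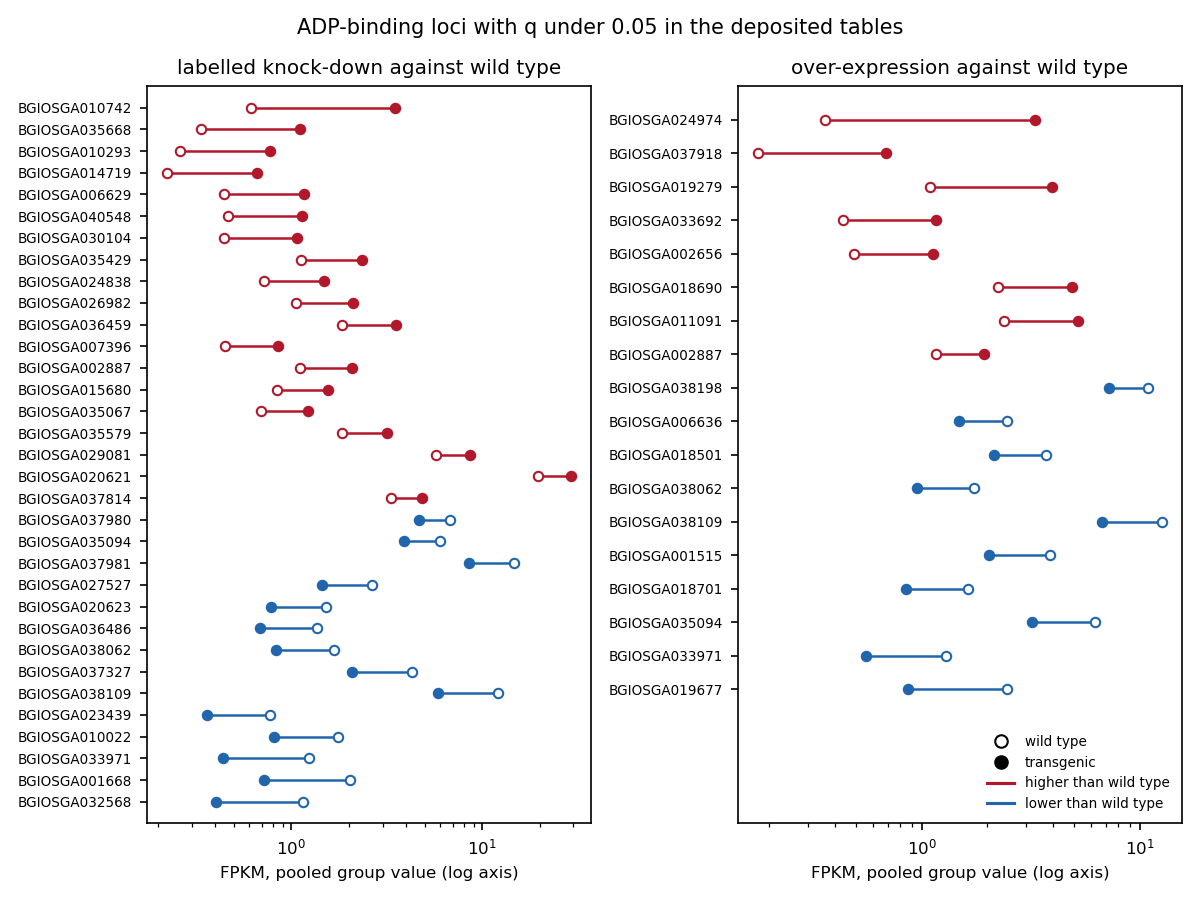
Pooled FPKM on a log axis in wild type (open) and in the transgenic group (filled) for the 33 members called in the KD-labelled libraries (left) and the 18 called in over-expression (right), ordered by log2 fold change, with rises in red and falls in blue. Most called members lie between 0.2 and 10 FPKM, and the longest line is that of BGIOSGA024974, from 0.361 to 3.32 FPKM.

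Of the 80 members, 18 were listed in both tables, 46 in the table for the KD-labelled libraries alone and 16 in over-expression alone. Over all loci, 1714 of 6922 were listed in both. The KD-labelled libraries had 4341 listed loci, 64 of them members, and over-expression had 4295, 34 of them members. Of the 18 members, 13 (72.2%) were called in the KD-labelled libraries and 9 (50.0%) in over-expression, against 64.2% and 56.7% of the 1714 loci. Both tables use the same wild-type libraries, so their fold changes are not independent, and only each comparison's own values are given side by side. BGIOSGA002887 on chromosome 1 rose in each, from 1.11 to 2.08 FPKM in the KD-labelled libraries and from 1.16 to 1.94 FPKM in over-expression. BGIOSGA033971 fell in each, with log2 fold changes of -1.49 and -1.21. BGIOSGA038109 had -1.04 and -0.92, BGIOSGA038062 had -1.01 and -0.87, and BGIOSGA035094 had -0.62 and -0.97. These 5 loci were the members called in both tables, 1 as a rise and 4 as falls. Calls in both or in 1 alone were not counted over the 1714 loci, so these counts have no background.

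Most other members listed in both were called in 1 table. Called in the KD-labelled libraries alone were 8. Among these, BGIOSGA010742 had a log2 fold change of 2.50 there and 0.78 in over-expression, and BGIOSGA014719, the locus with hypersensitive response terms, had 1.57 and 1.43 at levels of at most 0.662 FPKM. BGIOSGA024838 had 1.05 and 0.76, BGIOSGA036459 had 0.95 and 0.49, BGIOSGA037814 had 0.56 and 0.45, and BGIOSGA001668 had -1.49 and -1.54, with q = 0.0431 and q = 0.0520 in the authors' deposited tables. The last locus had near-equal values on either side of the threshold. Called in over-expression alone were 4, namely BGIOSGA033692 (log2 fold changes of 0.97 and then 1.41), BGIOSGA002656 (1.78-fold and 2.30-fold higher), BGIOSGA001515 (-0.48 and -0.92) and BGIOSGA018501 (-0.59 and -0.79). BGIOSGA020578 on chromosome 6 was listed in both and called in neither.

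**Figure D3:**
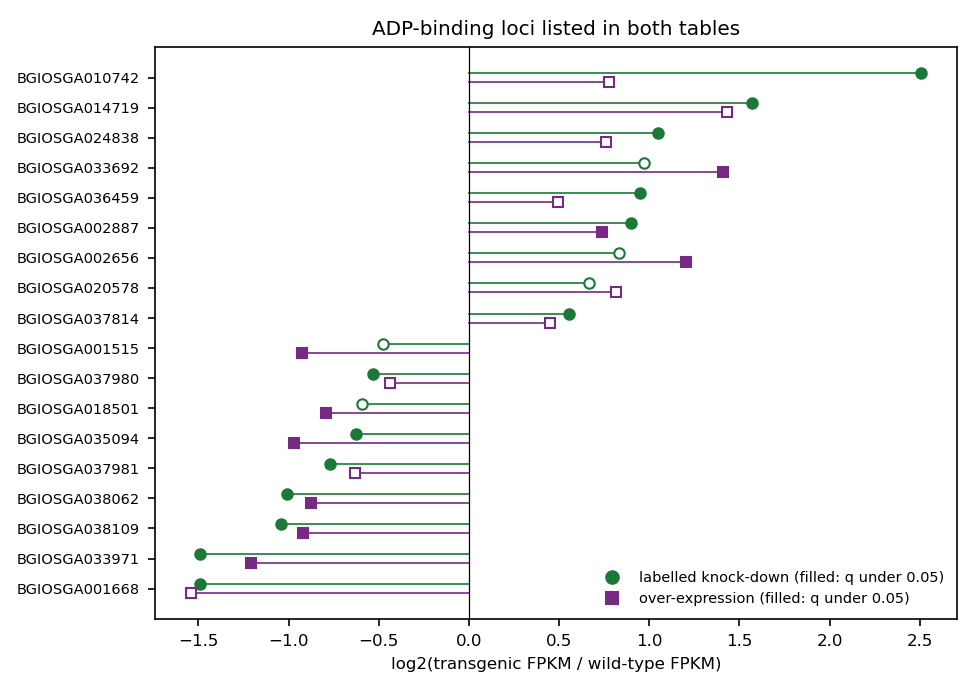
The log2 ratio of transgenic to wild-type FPKM for the 18 members listed in both tables, in the KD-labelled libraries (circles) and in over-expression (squares), filled where q was under 0.05. The widest gap between the symbols of a locus is at BGIOSGA010742, with 2.50 and 0.78; both ratios of a locus share the wild-type libraries.

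ADP-binding loci were spread over all 12 chromosomes with a marked share on chromosome 11. That chromosome held 14 of the 80 members (17.5%), against 4.15% of all listed loci, so that members made up 4.88% of the listed loci there. The other chromosomes held 3 to 8 members each. Unplaced sequences held 7 members (8.75%), against 1.11% of all listed loci. On chromosome 11, 9 of the 13 members listed for the KD-labelled libraries lay above wild type, of which 4 rose, and 4 lay below it, of which 2 fell. Of all 189 loci listed there, 37.6% lay above wild type, 18.0% rose and 34.4% fell. In over-expression 1 of the 4 members listed on chromosome 11 rose and 2 fell, while 74 of all 172 loci listed there rose and 18 fell. All 5 members listed on chromosome 9 stood under 1 FPKM in wild type and lay above it in the KD-labelled libraries, 1 of them called. Of all listed loci under 1 FPKM in wild type, 88.3% lay above it and 37.6% rose. The direction of all loci listed on chromosome 9 was not counted. None of the 5 members was listed in over-expression. Of the unplaced members 1 rose and 4 fell in the KD-labelled libraries, and 1 rose and 3 fell among the 6 listed in over-expression. All listed unplaced loci also fell more often than they rose in the KD-labelled libraries, with 12 rises and 22 falls among 49, and had 14 rises and 13 falls among 48 in over-expression.

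**Figure D4:**
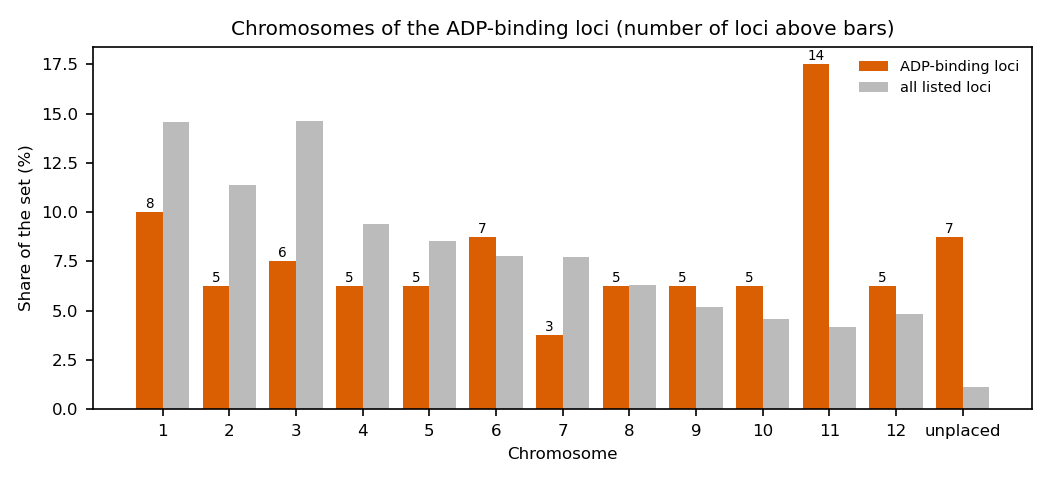
Share of the 80 ADP-binding loci (orange, with their number) and of all 6922 listed loci (grey) on each chromosome and on sequences outside the 12 chromosomes, in percent of each set. Chromosome 11 holds 17.5% of the members and 4.15% of all listed loci.

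Neighbouring members were looked for by the distance between transcript starts. With a distance of at most 200000 bp, 16 members (20%) formed 8 pairs, and no group held more than 2. The share was not computed for other listed loci, so it does not show whether members are more clustered than those. The tables list part of the genome, so these are pairs among listed loci. Whether they belong to arrays of similar copies was not checked. Members of an array are often similar in sequence, and reads of similar copies could be divided between them, so the value of each copy is uncertain. No member overlapped another listed locus in position.

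In order of the distance between starts, the closest pair was BGIOSGA029433 (18933439 to 18937517) and BGIOSGA029432 (18938705 to 18943536) on chromosome 9, 1187 bp apart. They stood at 0.68 and 3.75 on the log2 scale in the KD-labelled libraries and were not called. On chromosome 11, BGIOSGA035578 (19963864 to 19967474) and BGIOSGA035579 (19969728 to 19972859) stand 2253 bp apart. Their levels went from 2.17 to 3.19 FPKM, not called, and from 1.85 to 3.18 FPKM, a called rise, in the KD-labelled libraries. On chromosome 6 the directions were opposite: BGIOSGA020623 (30888484 to 30891101) fell from 1.52 to 0.782 FPKM in the KD-labelled libraries, and BGIOSGA020621 (30895922 to 30897485) rose from 19.7 to 29.1 FPKM. These loci lie 4820 bp apart with 1 other listed locus starting between them, and their q-values in the authors' deposited table were 0.0342 and 0.0147. On chromosome 5, BGIOSGA018690 (5152845 to 5155916) and BGIOSGA019279 (5166175 to 5170223), with starts 13330 bp apart, both rose in over-expression, with log2 fold changes of 1.13 and 1.86, and no other listed locus started between them.

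The other 4 pairs lay farther apart. On an unplaced sequence BGIOSGA037980 and BGIOSGA037981 both fell in the KD-labelled libraries, by 0.53 and 0.77 on the log2 scale, although BGIOSGA037980 stood at 0.052 once the median of all listed loci was set to 0. On chromosome 11 BGIOSGA035094 fell in both tables, and BGIOSGA035095, whose start lies 35123 bp away, had a log2 fold change of -0.55 in over-expression and was not called. On chromosome 10 BGIOSGA032483 and BGIOSGA032325 stood at -0.78 and -1.25 in the KD-labelled libraries, neither called. The widest pair, on chromosome 2, was listed in different tables: BGIOSGA006636 fell from 2.47 to 1.48 FPKM in over-expression, and BGIOSGA006629, 157337 bp away, rose in the KD-labelled libraries.

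**Figure D5:**
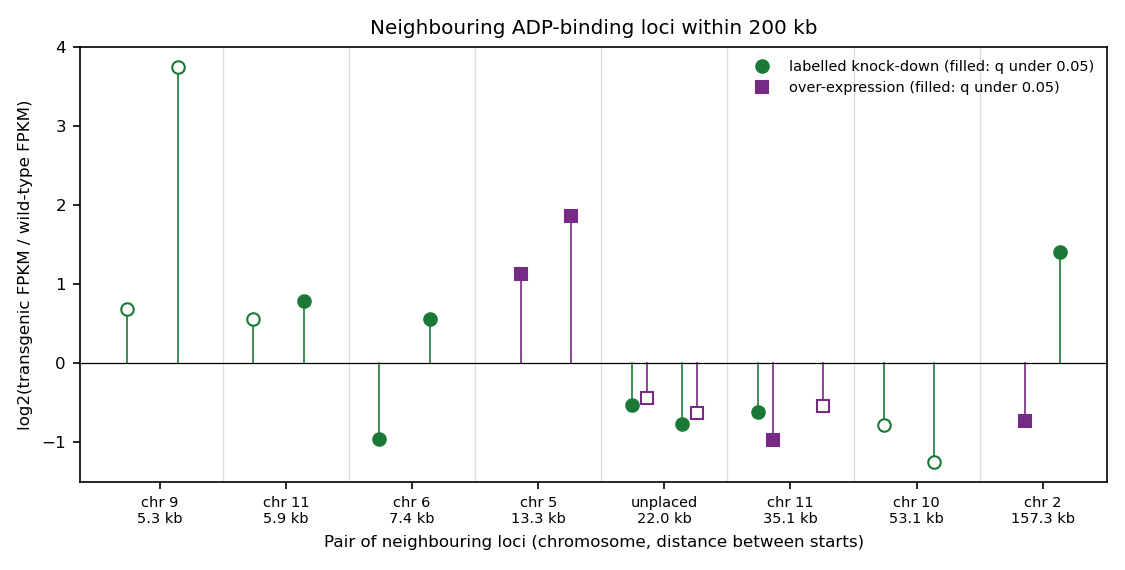
The log2 ratio of transgenic to wild-type FPKM for the 8 pairs of neighbouring members, ordered by the distance between their starts in kb, in the KD-labelled libraries (circles) and in over-expression (squares), filled where q was under 0.05. The chromosome 5 pair lies above 0 at 1.13 and 1.86, and the chromosome 6 pair has 1 locus at -0.96 and the other at 0.56.

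ADP-binding loci make up most of the defense response term in these tables. Of the 73 listed loci with that term, 54 (74.0%) are members. In the KD-labelled libraries, 33 of the 56 listed loci of the term were called (58.9%). Over all listed loci 17.6% rose and 36.7% fell there. The 42 listed members with the term had 24 called (57.1%, near the 54.3% of all listed loci), with 15 rises and 9 falls. The 9 called loci of the term that are not members, of 14 listed (64.3%), had 6 rises and 3 falls. These 14 had a median of 1.53 on the log2 scale, against 0.70 for the 42 listed members with the term. In over-expression, 20 of the 34 listed loci of the term were called (58.8%), while over all listed loci 37.9% rose and 13.6% fell. Among the 20 were 11 of the 22 listed members (50.0%, near the 51.5% of all listed loci), with 5 rises and 6 falls. The other 9 called loci, of 12 listed (75%), had 8 rises and 1 fall. The median of these 12 was 1.58, against -0.48 for the 22 members. Members without the term split evenly. Of 22 listed in the KD-labelled libraries, 11 lay above and 11 below wild type, and 9 were called (40.9%), with 4 rises and 5 falls. Of 12 in over-expression, 6 lay above and 6 below, and 7 were called (58.3%), with 3 rises and 4 falls. Their medians of -0.01 and 0.00 thus lie between rises and falls and do not stand for unchanged loci.

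Few symbols of other parts of the NLR pathway were matched. Of 9 symbols for chaperones and partners of NLR proteins, 1 was matched in the KD-labelled libraries, the HSP90 chaperone gene HSP81-1, which fell from 30.4 to 18.5 FPKM. The 1 match in over-expression, ACT1, is an actin gene that shares the synonym RAC1 and is not the small GTPase meant by the list. None of the 6 symbols of downstream signalling, among them EDS1 and PAD4, and none of the 7 of immune receptor kinases was matched in either table. Loci were matched by gene symbol, and only those with p of at most 0.05 are listed. A symbol without a match thus shows neither that the gene is absent nor that its level was unchanged. Of 8 salicylate regulators, WRKY45-2, a transcription factor of salicylate-dependent defence, was matched and rose in both tables, from 9.94 to 24.0 FPKM in the KD-labelled libraries and from 10.4 to 24.9 FPKM in over-expression. Of 15 symbols for defence outputs, 3 were matched in the KD-labelled libraries. The chitinase gene Cht4 rose there from 6.39 to 20.9 FPKM and in over-expression from 6.68 to 14.6 FPKM, while PR10a (0.562 and 5.80 FPKM) and the NADPH oxidase gene RBOHB (85.1 and 65.6 FPKM) were not called.

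Broader immune terms gave mixed directions. Rises and falls here count called loci only. Of all listed loci, 17.6% rose and 36.7% fell in the KD-labelled libraries, and 37.9% rose and 13.6% fell in over-expression. The hypersensitive response term had 9 listed loci in the KD-labelled libraries, 2 above and 7 below wild type, of which 1 rose and 6 fell. In over-expression it had 7, 3 above and 4 below wild type, of which 2 rose and 0 fell. BGIOSGA014719 was its 1 member among the ADP-binding loci in each table. The systemic acquired resistance term had 2 rises and 3 falls among 12 loci, and 4 rises and 1 fall among 8 loci in over-expression. For transmembrane receptor serine/threonine kinases, the surface counterparts of NLR receptors, 2 of 6 listed loci rose and 2 fell in the KD-labelled libraries, and 1 of 3 rose in over-expression. No listed locus had disease resistance in its protein name.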

How the data were processed

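The authors used Cufflinks 2.2.1 and Cuffdiff, per the submitters' processing notes, and loci carry Cuffmerge numbers, per the file headers. The aligner, genome build and Cuffdiff version were not given in the sources used here. Deposited FPKM values are 1 pooled value per group, per the file headers. The log2 fold change deposited by the authors was recomputed with no pseudocount and differed by at most 1.68e-05. The p-values and q-values are the authors' own, per the file headers. The ratio of q to p gave 17618 tests for the knock-down label and 17596 for over-expression, so that the 4341 and 4295 listed loci are 24.6% and 24.4% of the loci tested. The ranks imply 279 and 276 further loci at p of at most 0.05 that are not analysed here, so counts are lower bounds. This recovery and the grouping by distance were tested on simulated data.

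Depth per library is unknown because the files give FPKM without counts; no interval was computed, and no test of replicates could be made. P-values at most measure the spread between these libraries, which may be technical. Columns that could not be assigned to a group numbered 0. The members, lists and alternatives were chosen with earlier results of these data known. Classes of wild-type level were added after the values were seen. Named loci were the members called in both tables, the 8 largest called rises and 8 largest called falls per table at 1 FPKM or more in the higher group, the 5 of highest wild-type level, members with a protein name, and groups of 3 or more within 200000 bp, of which there were 0. Others were chosen after their values were seen. They were named for a position in a pair or off the chromosomes, their annotation, a level near 0 or a listing in both comparisons. The RefSeq gene table matched 0 of 80 member identifiers. Python 3.11.15 with pandas 2.3.3 was used.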

Additional observations from a re-analysis of the deposited data

How the results depend on the processing

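With q under 0.01, 12 members were called in the KD-labelled libraries (7 higher, 5 lower) and 8 in over-expression (4 higher, 4 lower). Requiring at least 2-fold left 17 (9 higher, 8 lower) and 9 (7 higher, 2 lower). At 1 FPKM or more in the higher group, without the chloroplast condition, after centring or with single-identifier loci alone, every count of called members stayed within 1.5 times its value. The median log2 fold change in the KD-labelled libraries, 0.69, became 0.62 and 0.34 with pseudocounts of 0.1 and 1, 0.53 at 1 FPKM or more in the higher group, 0.59 over called members, 0.68 with the chloroplast locus and 1.27 after centring on all listed loci. In over-expression -0.48 became -0.47 and -0.38 with the pseudocounts, -0.66 over called members and -1.15 after centring. The median wild-type level was 2.31 FPKM over the members of the over-expression table, a partly different set of loci, against 1.12. Pairs or larger groups numbered 6 within 50000 bp and 11 within 500000 bp, 2 of them of 3 loci.

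Among the named members, 2 values turned higher after centring in the KD-labelled libraries, BGIOSGA035036 at 0.14 and BGIOSGA037980 at 0.052. At q under 0.01, 21 of 42 values lost their call. The 42 include values with no call to lose, such as that of BGIOSGA035036, so the share lost among called values was higher. No paired analysis was possible because the tables hold 1 pooled value per group, and for the same reason no replicate could be left out.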
